A study of Rattus norvegicus with 4 samples.

Results

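Replication-dependent histone transcripts were followed over 4 cultures of NR8383 cells, a rat alveolar macrophage line established from lung lavage. The genes were H1f4, H1f5, H2ac4, H2ac21, H2ac25, H2bc12 and H4c14, 7 of 16581 genes that could be named on the array. Their probes were found by matching the array's accessions to RefSeq, which gave 8 probes with 21 spots on each array. The set was chosen by its measured signals, since H1f4 differed strongly between the replicates, so the spread of these genes over the arrays is described here and not tested. All 4 samples belong to 1 group, cells of this 1 line after 20 passages that are named as the H2O control. The cells grew for 48 h after seeding into 25 cm2 flasks, and the control incubation lasted 4 h. The labels also give a serum content of 15%. These 4 samples carry the tag ALI in their names, and its meaning is not given. The series calls them biological replicates, and the labels do not say how the cultures were separated. The RNA had an integrity number above 7.5, and 100 ng of it was labelled with Cy3 for 1-colour Agilent arrays. The labels give no other treatment, allele or agent, so there was no comparison between conditions. The values below show how far the arrays of 4 control cultures differed.

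Histones are the proteins around which DNA is wound, with H2A, H2B, H3 and H4 in the nucleosome core and H1 on the linker DNA between cores. The replication-dependent histone genes lie in clusters and are transcribed mainly in S phase, when new DNA has to be packed, and their mRNAs are known to end in a stem-loop bound by the protein SLBP in place of a poly(A) tail. Replication-independent variants such as H3.3 and H2A.Z have polyadenylated mRNAs and are made throughout the cell cycle. In a dividing cell line the histone mRNA pool is known to depend on the share of cells in S phase and on the stability of these mRNAs, and in bulk RNA a smaller share of such cells and less of the RNA per cell cannot be told apart. The genes of 1 histone class are nearly identical in their coding parts, so a probe may also bind the RNA of other copies, which was not tested.

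Each value is a log2 signal from which the array's own 75th percentile was subtracted, so 0 is that percentile and a difference of 1 is 2-fold. They serve to follow 1 probe over the arrays and not to rank genes. A probe was called well above background by the scanner software's own flag, and a gene was called detected when a probe of it was so on 4 of 4 arrays. On replicates 1 to 4 that percentile stood at intensities of 878, 932, 1237 and 831, and the flag was set for 49.2% to 50.3% of gene spots. Pearson's r across the 8455 detected genes lay between 0.990 and 0.996 for the 6 pairs of arrays, and genes are not independent replicates. All 8 of the macrophage markers checked were detected (Cd68, Csf1r and Spi1 among them), as were 5 of 7 named alveolar macrophage markers. Of 20 named markers of epithelium, endothelium, fibroblasts, lymphocytes and neutrophils, 3 were detected (Pecam1, Cdh5 and Dcn). All 3 were among the 6 markers of endothelium and fibroblasts. Sftpc, Epcam, Cd3e and S100a8 were well above background on none of the arrays, and neither were the alveolar macrophage markers Marco and Car4.

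All 7 histone genes were detected on 4 of 4 arrays, where 51.0% of all named genes were. The highest array exceeded the lowest by more than 2-fold for H1f4 and H2ac21, while for H1f5, H2ac4, H2ac25, H2bc12 and H4c14 it did not. This difference is called the span. Among all detected genes 3.26% did. Nothing is read from this count, since the choice of the genes used the same spread. The median span of the 7 genes was 0.80 on the log2 scale, beside a median of 0.32 over the 8455 detected genes, and their median SD was 0.37 beside 0.14. With the arrays scaled to spike-in RNA, as described further on, the order of these medians turned round, with a median span of 0.53 for the 7 genes and 0.85 for all detected genes. Without replicate 3 none of the 7 spanned more than 2-fold, and without replicate 1 only H1f4 did.

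**Figure D1:**
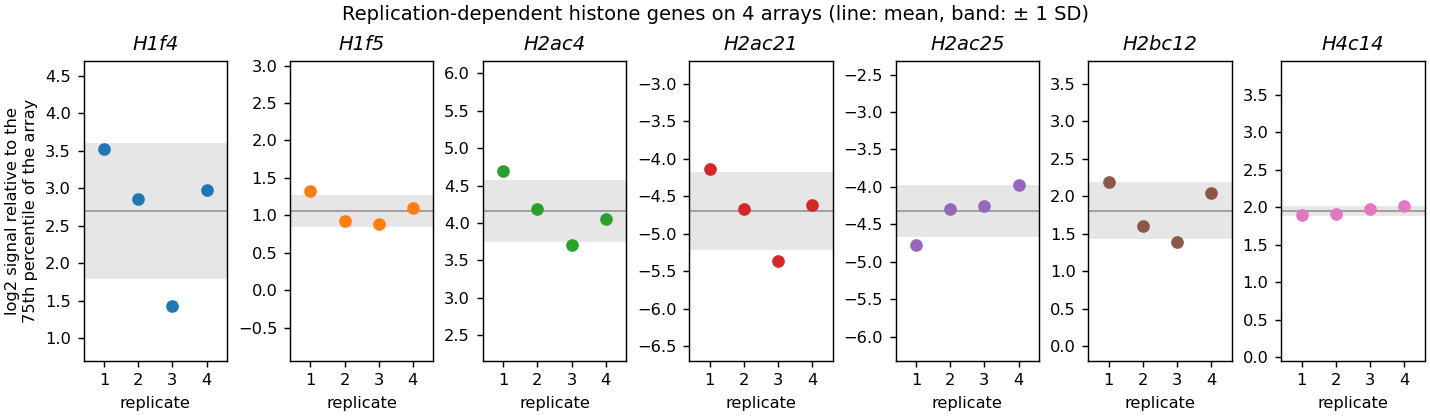
Signal of the 7 histone genes on the 4 arrays, as log2 signal minus the array's 75th percentile (vertical axis, a window of equal height for each gene) against the replicate number. Points are the arrays, the line is the mean and the band is ± 1 SD (n = 4). On replicate 3 H1f4 had 1.43, below its other arrays (2.86 to 3.52), whereas H4c14 stayed between 1.90 and 2.02.

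The linker histone H1f4, which encodes H1.4, one of the common H1 proteins of somatic cells, differed most between the cultures. Its signal was 3.52, 2.86, 1.43 and 2.98 on replicates 1 to 4, with a mean of 2.70 ± 0.89 (SD, n = 4). Replicate 3 was low, replicate 1 was high, and replicates 2 and 4 lay 0.12 apart. The span of 2.09 equals a 4.25-fold ratio of the highest over the lowest array. Before scaling, its probe had an intensity of 10064.5 on replicate 1, 6747 on replicate 2, 3337 on replicate 3 and 6552 on replicate 4, so replicate 3 was the lowest in the deposited signals as well. The scanner software gave an error of 10.0% for this probe on each array. Without replicate 3 the span was 0.66.

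H1f5, the gene of the related linker histone H1.5, had signals of 1.33, 0.93, 0.89 and 1.10 on replicates 1 to 4 (1.06 ± 0.20, SD, n = 4). It was also highest on replicate 1 and lowest on replicate 3, with a span of 0.44, and replicates 2 and 3 lay only 0.04 apart. Its distance between replicates 1 and 3 was thus 0.44, against 2.09 for H1f4.

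The promoters of both linker histone genes are shown because the 2 genes share their promoter boxes and differed in spread. Each window runs from 250 bases before the gene's first base to 50 after its start (RefSeq, GRCr8, 5′ to 3′ on the gene's strand). H1f4 lies at chr17:41914175-41914474 on the plus strand and H1f5 at chr17:47421625-47421924 on the plus strand. Capitals mark 4 motifs searched on both strands: AAACACA, known as the H1 box, the CCAAT letters, the TATA letters TATAAA and the octamer ATTTGCAT.
H1f4: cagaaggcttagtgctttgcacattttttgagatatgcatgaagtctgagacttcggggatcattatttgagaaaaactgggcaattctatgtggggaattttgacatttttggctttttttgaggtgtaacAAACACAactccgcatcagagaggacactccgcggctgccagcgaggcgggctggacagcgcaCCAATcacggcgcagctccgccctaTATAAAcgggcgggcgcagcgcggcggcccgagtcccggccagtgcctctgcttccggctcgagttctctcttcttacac
H1f5: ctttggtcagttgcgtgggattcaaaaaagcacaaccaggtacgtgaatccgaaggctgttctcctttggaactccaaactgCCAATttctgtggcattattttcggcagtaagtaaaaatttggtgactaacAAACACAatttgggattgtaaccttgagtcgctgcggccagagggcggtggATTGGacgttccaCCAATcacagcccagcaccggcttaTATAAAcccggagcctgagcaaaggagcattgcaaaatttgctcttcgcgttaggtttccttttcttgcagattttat
Both windows hold AAACACA, which begins at position -118 in H1f4 and at -117 in H1f5 when the gene's first base is counted as 0. They also hold CCAAT at -55 in H1f4 and at -53 in H1f5, and TATAAA at -30 in H1f4 and at -28 in H1f5. In H1f5, CCAAT letters occur at 2 further places. Over 33469 rat promoters of this length, 6.99% hold AAACACA, 37.5% hold CCAAT, 14.2% hold TATAAA and 1.78% hold the octamer on either strand. A match is a description of letters and not of a bound site.

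Among the H2A genes, H2ac4 had the best measured signal, since its probe was spotted 10 times on each array. Its mean signal was 4.69, 4.19, 3.71 and 4.06 on replicates 1 to 4 (4.16 ± 0.40, SD, n = 4), a span of 0.98. The 10 spots lay between 4.55 and 4.88 on replicate 1, between 4.09 and 4.32 on replicate 2, between 3.55 and 3.83 on replicate 3 and between 3.75 and 4.28 on replicate 4. Replicate 1 therefore lay above every spot of the other arrays, and the spots of replicates 2 and 3 did not overlap. The spots of replicate 4 overlapped those of both. Spots of 1 array share 1 RNA sample, so they show how closely the array measured that sample and are not replicates of the culture. The SD between the spots of an array ran from 0.07 to 0.18, below the SD of 0.40 between arrays.

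H2ac21 was measured by 1 spot with a low signal of -4.14, -4.66, -5.37 and -4.61 on replicates 1 to 4 (-4.69 ± 0.51, SD, n = 4). It too was highest on replicate 1 and lowest on replicate 3, with a span of 1.23. In the deposited signals the same spot read 49.9, 36.7, 30.0 and 34.0, with a scanner error of 12.7% to 17.3%. With another background correction, normexp on the median signal, the span was 0.74 and no longer above 2-fold.

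H2ac25, another H2A gene, was lowest on replicate 1, as was the brighter probe of H4c14 with a much smaller span. Its single spot gave -4.77, -4.29, -4.25 and -3.97 on replicates 1 to 4 (-4.32 ± 0.33, SD, n = 4), a span of 0.80. The intensities behind it were 32.2, 47.5, 65.0 and 53.1, with a scanner error of 11.9% to 15.7%. On replicate 1 it deviated from its own mean by -0.45, where H2ac4 deviated by 0.53 and H2ac21 by 0.56.

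The promoters of H2ac4 and H2ac25 are shown beside each other because these H2A genes took opposite places on replicate 1. H2ac4 lies at chr17:47496078-47496377 on the minus strand and H2ac25 at chr10:44233033-44233332 on the plus strand, with the same window, source and motifs in capitals as above.
H2ac4: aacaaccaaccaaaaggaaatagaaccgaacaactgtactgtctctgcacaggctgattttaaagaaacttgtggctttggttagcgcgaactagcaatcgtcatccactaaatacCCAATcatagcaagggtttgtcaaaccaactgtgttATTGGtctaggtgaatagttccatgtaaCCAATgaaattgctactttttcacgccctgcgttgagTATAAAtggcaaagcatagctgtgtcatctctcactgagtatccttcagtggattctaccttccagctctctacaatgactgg
H2ac25: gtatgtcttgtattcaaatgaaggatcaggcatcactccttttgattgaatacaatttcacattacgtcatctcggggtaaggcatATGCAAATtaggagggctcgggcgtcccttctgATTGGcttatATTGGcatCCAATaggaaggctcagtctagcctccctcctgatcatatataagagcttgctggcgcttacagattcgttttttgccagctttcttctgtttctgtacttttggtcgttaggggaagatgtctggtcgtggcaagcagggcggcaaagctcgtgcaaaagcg
Both windows hold CCAAT letters at 3 places, from -134 to -70 in H2ac4 and from -131 to -113 in H2ac25. H2ac4 holds TATAAA at -33. These exact letters are not in the window of H2ac25, which holds the similar letters tatataa. H2ac25 holds the octamer on the reverse strand at -164, and H2ac4 does not hold it. Of the 6 promoters that could be matched, all 6 hold CCAAT and 5 hold TATAAA, on either strand. In H2bc12 the TATAAA letters are on the reverse strand only. AAACACA is held by 2 (H1f4 and H1f5), and the octamer by 2 (H2ac25 and H2bc12).

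H2bc12, a gene of the core histone H2B, had signals of 2.18, 1.60, 1.39 and 2.04 on replicates 1 to 4 (1.80 ± 0.37, SD, n = 4). Replicates 1 and 4 were high and lay 0.15 apart, and replicates 2 and 3 were low and lay 0.21 apart. Its 2 spots differed little within an array: they lay at 2.18 and 2.19 on replicate 1, at 1.58 and 1.62 on replicate 2, at 1.36 and 1.43 on replicate 3, and at 1.95 and 2.13 on replicate 4. The span was 0.79.
The window of H2bc12 is printed because the octamer is known from H2B promoters. It lies at chr17:47181891-47182190 on the minus strand (RefSeq, GRCr8), with the same motifs in capitals.
H2bc12: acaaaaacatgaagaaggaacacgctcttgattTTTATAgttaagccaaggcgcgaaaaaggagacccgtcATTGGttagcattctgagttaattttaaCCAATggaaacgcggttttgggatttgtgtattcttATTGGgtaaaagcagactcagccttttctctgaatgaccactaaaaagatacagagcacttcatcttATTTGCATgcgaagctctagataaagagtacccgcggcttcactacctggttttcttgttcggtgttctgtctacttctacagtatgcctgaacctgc
The octamer begins at -48, and CCAAT letters occur at 3 places from -179 to -115. TATAAA occurs on the reverse strand at -217.

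H4c14, a gene of the core histone H4, hardly differed between the cultures. Its brighter probe gave 1.90, 1.91, 1.98 and 2.02 on replicates 1 to 4 (1.95 ± 0.06, SD, n = 4), and its other probe gave 1.98, 1.80, 1.94 and 1.94 (1.91 ± 0.08, SD, n = 4). The spans of these probes were 0.12 and 0.18, and their highest and lowest arrays were not the same. Of all detected genes, 5.55% had a smaller span than H4c14, whereas 99.8% had a smaller span than H1f4. Nothing is read from the rank of H1f4, which was chosen for its spread. With spike-in scaling, described further on, H4c14 spanned 0.89.

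**Figure D2:**
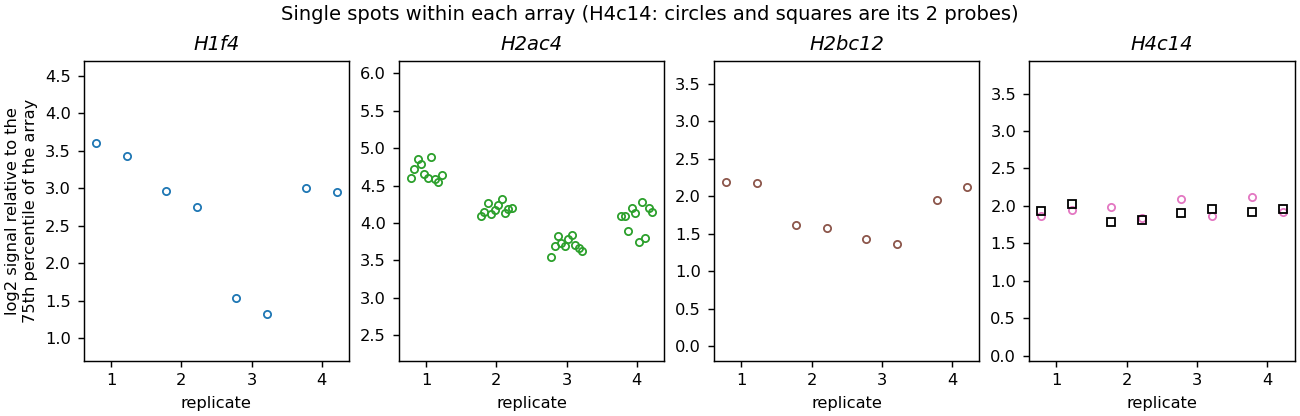
Single spots of the histone probes that were spotted more than 1 time, as log2 signal minus the array's 75th percentile against the replicate number, with windows of equal height. Circles are spots of 1 probe, and squares are the other probe of H4c14. The 10 spots of H2ac4 on replicate 1 (4.55 to 4.88) lay above all its spots on the other arrays, and both spots of H1f4 on replicate 3 (1.33 and 1.54) lay below all others.

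Of the 7 genes, 5 (H1f4, H1f5, H2ac4, H2ac21 and H2bc12) were highest on replicate 1 and lowest on replicate 3, an order that 10.3% of all detected genes had. This order was noted after the values were seen, and the genes are not independent of each other. Under quantile normalization 4 of the 7 had it, beside 8.49% of all detected genes. With no scaling it was left for H1f4 and H2ac21, beside 0.497% of all detected genes.

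Of 25 symbols of replication-dependent histone families in the RefSeq table, 11 had a named probe, the 7 genes above and H1f1, H1f6, H2ac1 and H2bc1. None of the other 4 was detected on all arrays. H1f1, a linker histone gene, was well above background on 3 arrays, with signals of -3.60, -5.79, -4.05 and -4.30 on replicates 1 to 4. H1f6, the testis linker histone, was well above background on 1 array, and the testis core histones H2ac1 and H2bc1 were so on none. The 7 genes are therefore all the named genes of these families that were detected, and a count over them says nothing on family members without a named probe.

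The scale on which the arrays are compared changed these patterns. The array carries E1A control probes for Agilent's spike-in RNA, and 8 of 10 such probes were well above background on all arrays. Before scaling, the mean log2 intensity of these 8 was 11.94, 11.54, 11.61 and 11.76 on replicates 1 to 4, lowest on replicate 2. Relative to the 75th percentile, which was highest on replicate 3, their mean was 2.16, 1.67, 1.34 and 2.06. All 8 were lowest on replicate 3, 4 were highest on replicate 1 and 4 on replicate 4, and their spans ran from 0.69 to 1.04. The 5 histone genes named above were lowest on replicate 3 as well, while H2ac25 and H4c14 were lowest on replicate 1. The span of H1f4, 2.09, was larger than that of any of the 8 spike-in probes, but H1f4 was chosen for its spread.

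When the arrays were set to the mean of these spike-in probes, a choice made after seeing the data, the median detected gene shifted by -0.37, 0.15, 0.44 and -0.21 on replicates 1 to 4. H1f4 stayed lowest on replicate 3 and highest on replicate 1, with a span of 1.27, beside a median span of 0.85 for all detected genes. H2ac21 also kept that order with a span of 0.41. The order was found in 0.0828% of detected genes on this scale, and 0.627% were lowest on replicate 3. H2bc12 then spanned 0.13, the smallest of the 7 genes, and H2ac4 spanned 0.53 with its lowest value on replicate 4. H1f5, H2ac25, H2bc12 and H4c14 were highest on replicate 3, with spans of 0.51, 1.34, 0.13 and 0.89. The median detected gene was itself raised there, and the share of all detected genes highest on replicate 3 was not counted. A highest value on replicate 3 on this scale is therefore not read as a trait of these genes or of any list below. H1f4 and H2ac25 spanned more than 2-fold on this scale, where 27.5% of detected genes did. Which scale holds for these cultures was not tested.

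**Figure D3:**
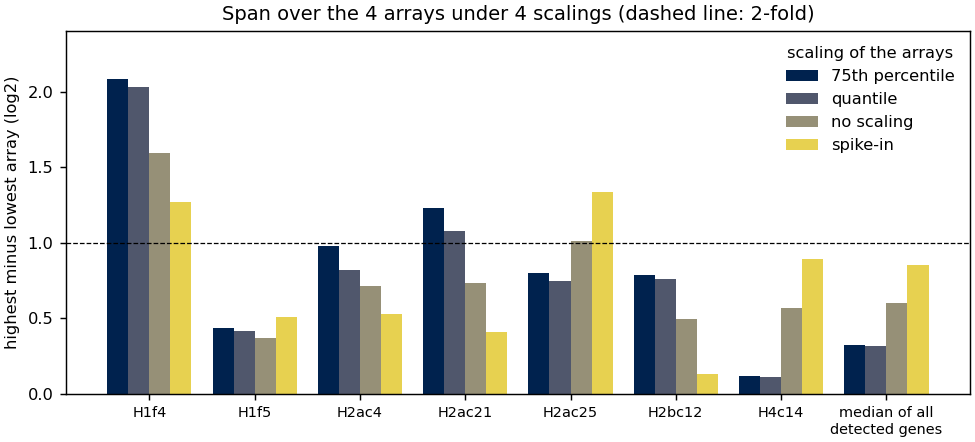
Span over the 4 arrays (highest minus lowest array, log2, vertical axis) of each histone gene and the median of all detected genes, under 4 ways of scaling the arrays. Bars start at 0 and the dashed line marks 2-fold. H1f4 spanned more than 2-fold under all 4 scalings, H2bc12 went down to 0.13 under spike-in scaling, and H4c14 had a span of 0.89 there.

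The arrays lay on 1 slide with 1 scan date, so neither could be set against the replicates.

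Other RNAs that have no usual poly(A) tail also differed between the arrays. Of 16 such RNAs listed, 6 had a named probe and 5 were detected, and all 5 were lowest on replicate 3, as 36.7% of detected genes were. With spike-in scaling 2 of the 5 were lowest there, beside 0.627% of detected genes. On that scale the mean deviation of the 5 on replicate 3 was -0.32, where the median detected gene lay at 0.44. Their median span was 0.81, against 1.40 on the 75th percentile scale. In the limma variance test over the 8455 detected genes (Benjamini-Hochberg adjusted), which called 0.237% of all genes, 3 of the 5 differed more between arrays than genes of the same signal. Rn5-8s, a small ribosomal RNA of the large subunit, had signals of 2.13, 1.07, 0.37 and 2.49, and its adjusted p in limma was 0.00683. Rn18s, the ribosomal RNA of the small subunit, was at 2.96, 2.13, 1.70 and 3.22 (adjusted p = 0.0290, limma). Rn7sl1, the RNA of the signal recognition particle, was at 4.86, 3.82, 3.56 and 4.95 (adjusted p = 0.0401, limma). These 3 were high on replicates 1 and 4 and low on replicates 2 and 3, with replicate 4 the highest, so they share the low replicate 3 with H1f4 and not the highest array.

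Over 15 alternatives the adjusted p of limma's test ran from 2.39e-06 to 0.910 for Rn5-8s, from 0.000143 to 0.922 for Rn18s and from 0.000120 to 0.910 for Rn7sl1. None of the 3 was called without replicate 3, with spike-in scaling or without a trend in the variance, and Rn5-8s was called in the other 12 alternatives. Rn18s and Rn7sl1 were each called in 7 of 15, and were also lost with quantile normalization, no scaling, the median of detected probes, the mean of all probes and without replicate 4. Rpph1, the RNA of ribonuclease P, was at 2.39, 2.59, 1.35 and 1.69, and the ribosomal precursor Rn45s was at 8.35, 8.55, 7.55 and 8.12. Neither passed the test (adjusted p = 0.0648 for Rpph1 and 0.649 for Rn45s, limma), and both were highest on replicate 2. The part of labelling in the low values of these RNAs, of the spike-ins and of the histone genes on replicate 3 was not tested, and the labels do not give the labelling primer.

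**Figure D4:**
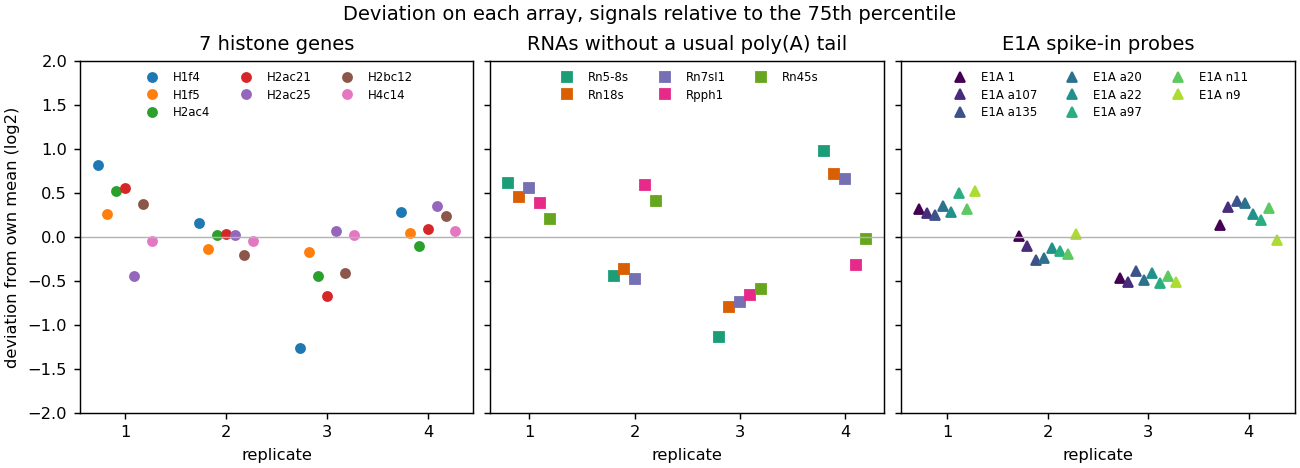
Deviation of each gene or probe from its own mean over the 4 arrays (log2, vertical axis, signals relative to the 75th percentile) against the replicate number, for the 7 histone genes, the 5 detected RNAs without a usual poly(A) tail and the 8 E1A spike-in probes. Points of 1 array are set side by side for legibility. On replicate 3, H1f4 lay at -1.26, all 5 RNAs without a usual tail lay below 0, and so did all 8 spike-in probes.

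Replication-independent histone genes had small spans on the 75th percentile scale. Of 10 with a named probe, 8 were detected and none spanned more than 2-fold. Their median span was 0.17, beside 0.32 for all detected genes and 0.80 for the 7 replication-dependent genes. That set of 7 was chosen because of the spread of H1f4. H3f3b, which encodes the variant H3.3, was at 4.66, 4.54, 4.65 and 4.70 on replicates 1 to 4. The H2A.Z genes H2az1 and H2az2 spanned 0.21 and 0.13, the linker histone variant gene H1f0 spanned 0.13, H2ax, the gene of the DNA damage variant, spanned 0.17 and Macroh2a1 spanned 0.10. The widest were Cenpa, the centromere variant, with a span of 0.57, and H2aj with 0.49. H2aj was at 4.66, 4.31, 4.16 and 4.36, again highest on replicate 1 and lowest on replicate 3. None of the 8 was called by limma's variance test, with 0 at an unadjusted p under 0.05 and 0 in the fit without a trend. Macroh2a2 and H2bu1 did not reach the background flag on any of the arrays.
With spike-in scaling all 8 were highest on replicate 3, where the median detected gene lay at 0.44. Their median span was 0.81, beside 0.85 for all detected genes. It was above the 0.53 of the 7 replication-dependent genes, so the contrast turned round on that scale. H2az2 spanned 0.90 when all its probes were averaged.

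The factors that make and trim histone mRNA were all detected, 16 of 16 with a named probe. Their mean deviations were -0.06, 0.04, 0.06 and -0.04 on replicates 1 to 4. Slbp, which binds the stem-loop of histone mRNA, was at 0.84, 0.97, 1.26 and 0.65, with its highest value on replicate 3, where H1f4 was lowest. Npat, the activator of histone gene transcription at the histone locus body, was at -3.59, -3.41, -3.92 and -4.10. The octamer-binding factor Pou2f1 spanned 0.73 by its brightest probe, but 0.27 with normexp and 0.077 with the mean of all its probes. None of the 16 was called by limma's variance test, with 1 at an unadjusted p under 0.05 and 0 called in the fit without a trend, and none spanned more than 2-fold. With spike-in scaling 14 of the 16 were highest on replicate 3, where the median detected gene lay at 0.44. On that scale 9 spanned more than 2-fold, beside 27.5% of all detected genes, with a median span of 1.04.

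Of 17 histone chaperone and import genes with a named probe, 15 were detected and 1 was called by limma's variance test. This was Hira, the chaperone that places H3.3 outside S phase, at -3.29, -2.24, -1.04 and -3.07 on replicates 1 to 4 with a span of 2.26 and an adjusted p of 0.0437 in limma. It was the 1 gene of the 15 that was highest on replicate 3, and 11 of the 15 were lowest there, beside 36.7% of all detected genes. This turned round with spike-in scaling, where 14 of the 15 were highest on replicate 3 and 0 were lowest there. On that scale the median detected gene lay at 0.44 on replicate 3, and 0.627% of all detected genes were lowest there. The adjusted p of Hira ran from 1.07e-05 to 0.982 over 15 alternatives, and it was called in 9 of them. It was not called without replicate 3 (0.982), without replicate 4 (0.0561), with quantile normalization (0.116), with the median of detected probes (0.0941), with the mean of all its probes (0.666) or without a trend (0.910). The other chaperones spanned at most 0.43, the value of Ipo9, and Hat1, a histone acetyltransferase that acts on new H4, spanned 0.37.

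Genes of S phase had a median span below that of all detected genes on the 75th percentile scale. Of 27 with a named probe, 26 were detected, and their mean deviations were within 0.03 of 0 on every array, with a range of 0.06 between arrays. Their median span was 0.25, beside 0.32 for all detected genes, and 0.77 with spike-in scaling, beside 0.85. Of the 26, 4 were highest on replicate 1 and lowest on replicate 3, beside 10.3% of all detected genes, and 1 spanned more than 2-fold. This was Gins2, a part of the replicative helicase, at -4.27, -3.23, -3.58 and -5.01 on replicates 1 to 4. Its span of 1.78 was below 2-fold with normexp, at 0.67, and with the mean of all its probes, at 0.44. Ccne2, a cyclin of S phase entry, spanned 0.62 (0.27 with normexp) with its highest value on replicate 3, and the replication factor Mcm10 spanned 0.50. None of the 26 was called by limma's variance test, with 1 at an unadjusted p under 0.05 and 0 in the fit without a trend. With spike-in scaling 25 of the 26 were highest on replicate 3, where the median detected gene lay at 0.44.

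The detected genes whose values over the arrays came closest to those of H1f4 were Gpr63, Cldn3, Cnih3, Krt86 and Kcnab2. Likeness was the root mean square difference between values centred on each gene's mean, over 4 arrays, and it was 0.18 for Gpr63, 0.23 for Cldn3, 0.24 for Cnih3, 0.30 for Krt86 and 0.31 for Kcnab2. Of the histone genes, H2ac21 came closest at 0.35, followed by H2ac4 at 0.48 and H2bc12 at 0.52. Rn18s, Rn7sl1 and Rn5-8s lay at 0.45, 0.47 and 0.47. H2ac25 was far from H1f4, with a difference of 0.92, and only 628 genes were farther.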

How the data were processed

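RNA of 4 cultures was measured on 1-colour Agilent arrays. The deposited values are processed signals, an intensity per spot after background subtraction by Agilent Feature Extraction 11.0.1.1, per the file headers and the submitters' processing notes. Flags for spots well above background and for outliers are the software's own, per the file headers. Spots with an outlier flag were left out, spots of 1 probe were averaged, and the log2 signal minus the array's 75th percentile was used. Of 45598 gene probes, 21109 (46.3%) were named through RefSeq accessions, none with several genes, and a gene was taken by its brightest probe. The histone genes and all gene lists were chosen with earlier results of these data known. Named genes were the histone genes, the 5 genes most like H1f4, and in each list the 3 with the largest span (all for replication-independent histones and RNAs without a usual tail).

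Variance between arrays was tested with limma 3.58.1 (R 4.3.3) over the 8455 detected genes, setting each gene's variance against the trend of genes of its signal, with Benjamini-Hochberg adjustment and a threshold of 0.05. It was tested on simulated data first. The p-values measure only the spread between these 4 samples. No gene spot was saturated, no pair of arrays had identical signals, and the number of arrays limits the precision. Alternatives were other scalings, background correction, filters, probe rules and leaving out each replicate. Probe sequences were not used here.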

Additional observations from a re-analysis of the deposited data

Results flagged for a closer look

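Of 37 genes checked for a single array far from the others, 3 stood out, all on replicate 3, and chance marks about 1 in 20 such groups. For Gpr63 the gap to the nearest array was 0.874 of the whole range, for Cnih3 it was 0.858 and for Cldn3 it was 0.832, each above Dixon's 95% critical value for 4 samples. All 3 had been picked for their likeness to H1f4, which was itself lowest on replicate 3. The rate of 1 in 20 therefore does not apply to them. Gpr63 was at -1.50, -1.72, -3.29 and -1.57 on replicates 1 to 4, Cldn3 at -0.04, -0.20, -1.54 and -0.30, and Cnih3 at -3.59, -3.79, -5.02 and -3.63.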

How the results depend on the processing

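The 7 histone genes were detected under every filter tried. Asking for at least 3 of 4 arrays, or leaving out a replicate, is looser than the main rule, so nothing is read from this. H1f4 spanned 2.09, and between 0.66 and 2.09 when 1 replicate was left out. It spanned 1.27 with spike-in scaling, chosen after seeing the data, 1.59 with no scaling, and 2.03 with quantile normalization. The count of histone genes spanning more than 2-fold was 2, was 1 with normexp and ran from 0 to 2 without 1 replicate. Of all detected genes 276 spanned more than 2-fold, and this became 833 with no scaling, 76 with normexp, 3907 with no filter on dim probes, 1197 with the positive and significant flag, 2323 with spike-in scaling and 130 to 229 without 1 replicate. Limma's variance test called 20 genes. It called 4 without a trend, 13 with the mean of all probes, 79 with no filter, 57 with normexp, 42 with outlier spots kept, 10 with quantile normalization, 12 with spike-in scaling and 3 to 63 without 1 replicate. Of 396 spans of 36 other named genes under alternatives, 323 moved by less than 1 SD and 73 by more, 43 of them downwards and 22 of them with spike-in scaling. Some of the 323 could not move. Leaving out an array that is neither highest nor lowest keeps the span, as does averaging the probes of a gene with 1 probe. No paired analysis was possible because the series holds 1 group. Genes with a low signal, such as H2ac21 and H2ac25, rest on 1 spot with a scanner error above 10%, and 4 arrays limit every SD.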

Other observations

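Of the genes of G2 and mitosis, the stages that follow S phase, 18 had a named probe and 17 were detected. Their median span was 0.34, beside 0.25 for the S phase genes, and with spike-in scaling it was 0.64, beside 0.77, and their mean deviations were 0.12, -0.02, -0.11 and 0.01 on replicates 1 to 4. Of the 17, 6 were highest on replicate 1 and lowest on replicate 3, beside 10.3% of all detected genes, and none was called by limma's variance test, with 2 at an unadjusted p under 0.05 and 0 in the fit without a trend. Ccnb2, a mitotic cyclin, was at 2.17, 1.88, 1.58 and 2.05, and Kif20a, a kinesin of cell division, at 1.92, 1.68, 1.37 and 1.62. Birc5, the gene of survivin, was at 1.14, 0.68, 1.67 and 1.26, highest on replicate 3. With spike-in scaling 15 of the 17 were highest on replicate 3, where the median detected gene lay at 0.44. The difference between the lists was not tested.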
